A study of Mus musculus with 18 samples.

Results

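Rab GTPases are small membrane-bound switches, and the transcripts of 44 of them were examined among the 10509 genes listed for mouse pancreatic islets. The members are the rows whose gene symbol is Rab followed by a number and at most a letter and a further digit, without Rab3a and Rab27a. All 44 passed the filter on low values. Islets came from mice fed a high-fat diet for 12 weeks, so both groups share that diet. The knockout group (genotype label NRK1_BKO, 10 mice) lacks the nicotinamide riboside kinase NRK1 in cells that express Ins1Cre, a recombinase driven from the insulin 1 gene and so active in beta cells. The comparison group (label NRK1_WT, 8 mice) is called WT here. The sample titles of both groups begin with Ins1Cre, but the genotype label does not say whether the WT mice carry it. The strain, age and sex are not given in the labels. Whole islets also hold alpha, delta, vascular, immune and stromal cells that the driver does not target, and fewer cells of a type cannot be told apart from less RNA per cell.

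A Rab protein is loaded with GTP by an activator (a GEF), binds its membrane and recruits effectors such as tethers and motors, and is switched off by a GTPase-activating protein (a GAP). The inactive form is then extracted from the membrane. Each Rab marks particular membranes, and in beta cells they serve the route of insulin from the endoplasmic reticulum through the Golgi to the secretory granule, and the endosomal route by which granule membrane and receptors are retrieved. The members were placed by their known main site: 12 act at the ER and Golgi, 4 between the trans-Golgi and the cell surface, 5 at secretory granules, 13 at early and recycling endosomes and 6 at late endosomes, lysosomes and autophagosomes. The other 4 (Rab23, Rab28, Rab40b and Rab40c) act at the cilium or have a less settled place.

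Libraries were made with a kit that reads each transcript near its 3′ end, so levels were compared between genes without division by transcript length. Over the listed genes a library held 2831137 to 4303680 reads, of which 4753 to 10842 belonged to the 44 Rab genes. The deposited values are log2 of scaled reads (written CPM here) plus a floor of 0.562, and a gene with no read stands at -0.83. A single read stood for 0.390 CPM in KO 3, with 3292303 listed reads, and for 0.276 CPM in WT 4, with 3174087. The scaling was therefore not by the listed read total alone. Of the 18 libraries, WT 7, KO 2 and KO 3 had the most genes with no read, at 346, 320 and 227 against 33 to 150 in the others. KO 2 also had the lowest Rab share of the reads outside Ins1 and Ins2, 0.349%, where the mean was 0.460% ± 0.0505 (SD, n = 10) in knockout islets against 0.488% ± 0.0116 (SD, n = 8) in WT islets. Class sums, and a part of the fold changes and correlations, are also given without these 3 libraries. Of the islet markers, 9 of 10 beta-cell and 8 of 9 alpha-cell genes were listed, and Ins2, Gcg and Sst were present in every library. Nmrk1, the targeted gene (chr19:18632016-18652428; coordinates are RefSeq gene spans on GRCm38.p6), had 3 to 36 reads and a knockout minus WT log2 difference of -0.03 (SE 0.35). The sources used here do not give which exons were deleted, so these 3′ end reads do not check the genotype labels.

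Promoters are shown for 5 members on which the results below turn: Rab14, of the highest level among the 44, and Rab5c, Rab4b, Rab1a and Rab6a, which belong to the 3 pairs of highest correlation from mouse to mouse. Each runs from 250 bases before to 50 after the annotated start, 5′ to 3′ on the gene's strand, from RefSeq on GRCm38.p6, with motif matches in capitals. The motifs are the CCAAT box (CCAAT, or ATTGG on the other strand) and the GC box (GGGCGG, or CCGCCC). Neither contains the other's letters.
Rab14 (chr2:35201071-35201370, minus strand): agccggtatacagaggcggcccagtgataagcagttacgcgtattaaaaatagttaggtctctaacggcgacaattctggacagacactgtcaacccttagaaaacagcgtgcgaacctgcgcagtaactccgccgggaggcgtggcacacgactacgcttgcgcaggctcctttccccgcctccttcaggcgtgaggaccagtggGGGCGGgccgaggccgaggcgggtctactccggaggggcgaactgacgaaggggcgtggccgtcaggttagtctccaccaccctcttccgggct
Rab5c (chr11:100738166-100738465, minus strand): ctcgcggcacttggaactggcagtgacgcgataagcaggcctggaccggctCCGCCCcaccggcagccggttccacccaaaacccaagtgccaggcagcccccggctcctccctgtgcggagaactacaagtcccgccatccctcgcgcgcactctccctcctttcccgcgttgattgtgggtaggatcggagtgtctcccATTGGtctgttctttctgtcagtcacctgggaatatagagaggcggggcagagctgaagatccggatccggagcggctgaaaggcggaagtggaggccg
Rab4b (chr7:27178834-27179133, minus strand): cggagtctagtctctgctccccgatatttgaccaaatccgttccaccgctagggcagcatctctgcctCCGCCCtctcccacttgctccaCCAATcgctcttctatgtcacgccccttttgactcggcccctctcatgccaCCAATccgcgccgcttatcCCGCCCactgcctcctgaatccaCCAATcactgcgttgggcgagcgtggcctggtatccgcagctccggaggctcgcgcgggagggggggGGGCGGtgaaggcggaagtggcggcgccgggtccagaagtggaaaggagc
Rab1a (chr11:20201162-20201461, plus strand): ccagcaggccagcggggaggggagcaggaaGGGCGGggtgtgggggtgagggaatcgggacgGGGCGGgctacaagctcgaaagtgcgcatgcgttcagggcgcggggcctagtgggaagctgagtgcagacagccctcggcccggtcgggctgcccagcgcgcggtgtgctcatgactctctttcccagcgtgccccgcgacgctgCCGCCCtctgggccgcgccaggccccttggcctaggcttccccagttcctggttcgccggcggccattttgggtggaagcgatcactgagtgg
Rab6a (chr7:100607336-100607635, plus strand): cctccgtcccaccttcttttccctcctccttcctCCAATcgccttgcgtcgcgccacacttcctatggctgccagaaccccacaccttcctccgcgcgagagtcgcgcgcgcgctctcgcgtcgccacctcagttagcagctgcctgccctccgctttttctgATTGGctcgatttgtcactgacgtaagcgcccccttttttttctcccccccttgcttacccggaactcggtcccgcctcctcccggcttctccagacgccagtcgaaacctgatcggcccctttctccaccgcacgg
Rab4b holds 3 CCAAT boxes and 3 GC boxes, Rab5c 1 of each, Rab6a 2 CCAAT boxes, Rab1a 3 GC boxes and Rab14 1 GC box. RefSeq promoters were matched for 38 of the 44 members by gene identifier. A CCAAT box was found in 21 of these 38 (55.3%), against 42.7% of the 8511 listed genes with a promoter, and a GC box in 30 (78.9%) against 70.8%. The E-box CACGTG was found in 4 members (10.5% against 12.0%), the TATA box TATAAA in 3 (7.89% against 8.24%) and the cyclic AMP element TGACGTCA in Rab25 alone (2.63% against 3.87%), both strands being searched. The E-box and the cyclic AMP element read the same on both strands, and no letters of one motif lie within another. The median GC content was 63.0% for the members and 61.3% for the listed genes. Letters matched in these windows are descriptions of sequence, not binding sites.

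The 44 Rab transcripts spanned a wide range of levels, and the endosomal members carried the largest share of their sum. The median log2 level of the 44 was 4.72, against 4.13 for all genes. By median level 28 lay above the median gene and 11 above 90% of genes. Rab14 was highest at 8.27, followed by Rab3d at 7.38, Rab7 at 7.34, Rab11b at 7.19, Rab2a at 7.18 and Rab24 at 7.06. Rab14 exceeded Rab3d in 17 of 18 libraries, by a mean of 0.79 ± 0.48 (SD, n = 18). No other neighbours in the order kept their places in more than 15 of 18 libraries: Rab3d exceeded Rab7 in 9 of 18 libraries and Rab11b exceeded Rab2a in 9 of 18. The lowest were Rab20 at 1.29 (0 to 15 reads), Rab26 at 1.14 (0 to 20 reads) and Rab19 at 0.96 (0 to 16 reads). These 3 had medians under 10 reads.

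**Figure D1:**
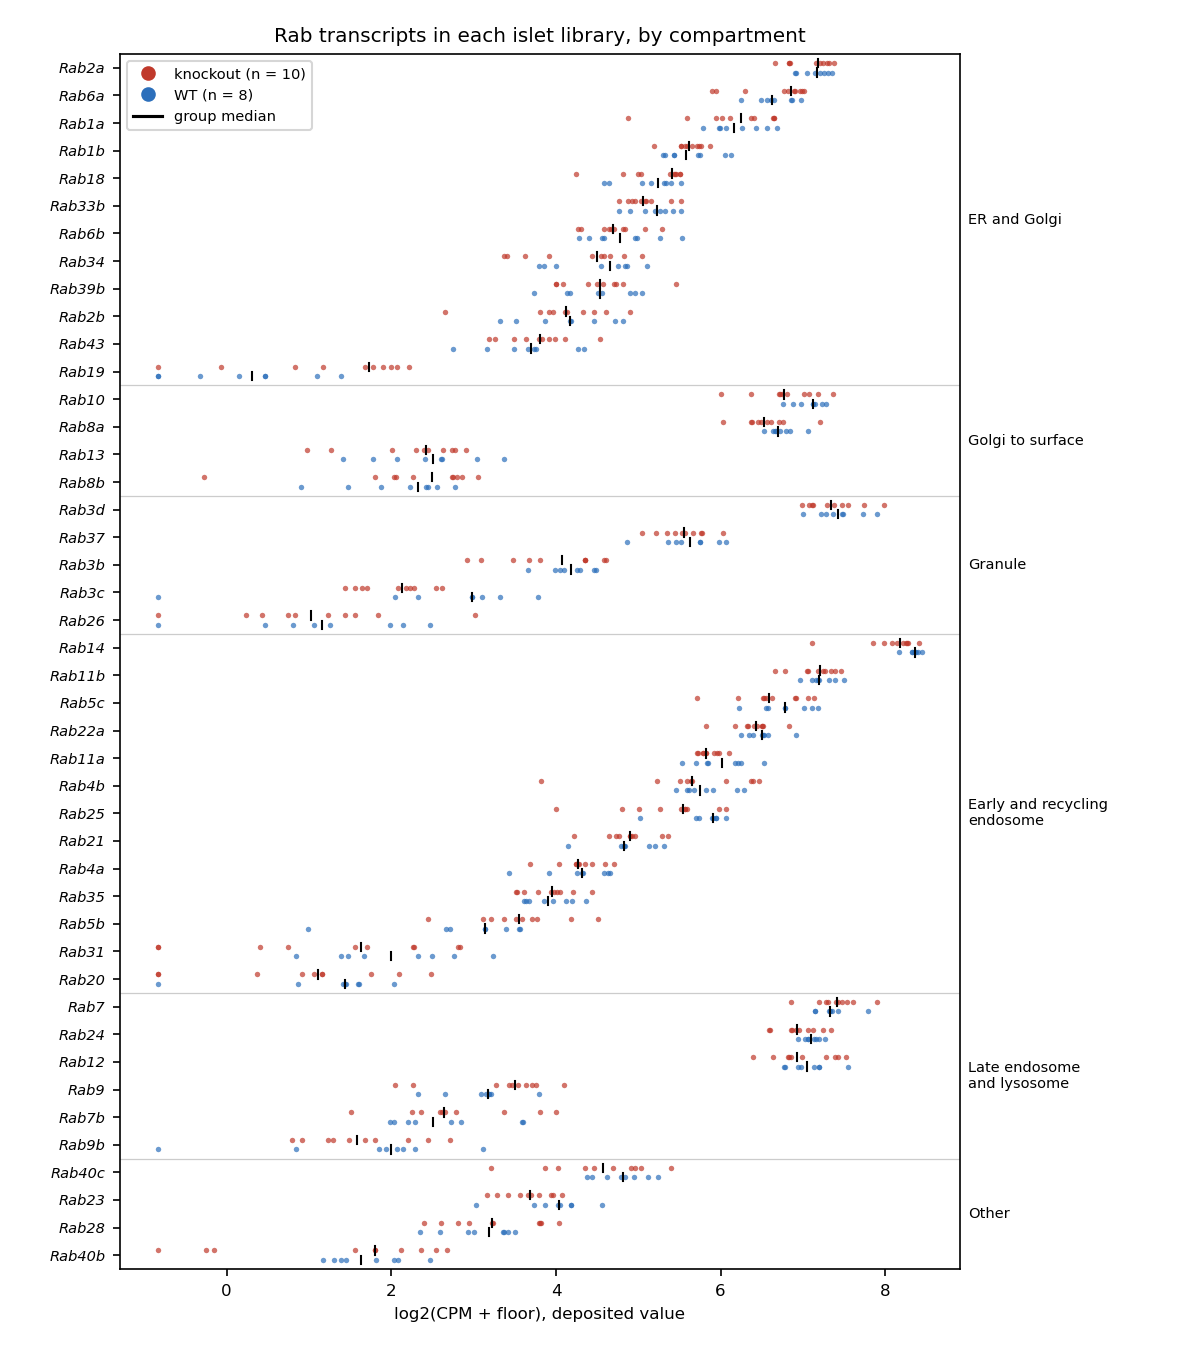
Level of each Rab gene in each islet library, as the deposited log2(CPM + floor) on the horizontal axis, with genes grouped by compartment and one point per library (knockout and WT in different colours). Rab14 stands highest at a median of 8.27, and Rab19, Rab26 and Rab20 lie lowest, at medians of 0.96 to 1.29, where single libraries reach the value of no read.

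At the ER and Golgi, Rab2a, Rab6a and Rab1a led. Rab2a (chr4:8535469-8607702), which acts in transport between the ER and the Golgi and in granule maturation, had knockout log2 levels of 6.66 at lowest, 7.18 at the median and 7.38 at highest, and WT levels of 6.90, 7.17 and 7.35. Rab6a (chr7:100607575-100641268), which acts in retrograde traffic at the Golgi, ran from 5.90 through 6.85 to 7.01 in the knockout and from 6.24 through 6.62 to 6.97 in WT. Rab1a (chr11:20201412-20226856), which acts in ER-to-Golgi transport, ran from 4.87 through 6.24 to 6.65 in the knockout and from 5.79 through 6.16 to 6.68 in WT. The groups overlapped for all 3, and the lowest library was KO 2 for Rab2a and Rab1a and KO 3 for Rab6a. The other 9 members had medians from 0.96 to 5.62: Rab1b 5.62, Rab18 5.33, Rab33b 5.09, Rab6b 4.69, Rab34 4.54, Rab39b 4.53, Rab2b 4.15, Rab43 3.74 and Rab19 0.96. Summed over the class the level was 535.7 CPM ± 78.0 (SD, n = 10) in knockout islets against 546.5 CPM ± 46.6 (SD, n = 8) in WT islets, and Rab2a made up 25.2% of it.

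Between the trans-Golgi and the surface, Rab10 and Rab8a were abundant and their relatives Rab13 and Rab8b were not. Rab10 (chr12:3247428-3309969), which serves delivery of vesicles to the plasma membrane, ran from 6.00 through 6.77 to 7.37 in the knockout and from 6.75 through 7.12 to 7.28 in WT. Rab8a (chr8:72161200-72181366), which serves polarized delivery and the cilium, ran from 6.02 through 6.53 to 7.21 in the knockout and from 6.52 through 6.70 to 7.06 in WT. The knockout range reached below and above the WT range for both genes. Rab13, which serves tight junctions, and Rab8b had medians of 2.43 and 2.34. The class summed to 219 CPM ± 48.0 (SD, n = 10) in knockout islets against 250 CPM ± 16.2 (SD, n = 8) in WT islets, with 52.0% of it from Rab10.

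Among the granule members, with Rab3a and Rab27a left out by the rule, Rab3d carried 70.3% of the summed level. Rab3d (chr9:21907491-21918199), a Rab3 form known from secretory granules of several exocrine and endocrine cells, ran from 6.99 through 7.33 to 7.99 in the knockout and from 6.999 through 7.42 to 7.90 in WT. Rab37 (chr11:115091331-115162773), which is found on insulin granules, ran from 5.04 through 5.55 to 6.03 in the knockout and from 4.86 through 5.63 to 6.06 in WT. Rab3b ran from 2.92 through 4.08 to 4.61 and from 3.66 through 4.18 to 4.48. The groups overlapped over most of their range for all 3. Rab3c, at a median of 2.26 and 0 to 52 reads, and Rab26 were the low members. The class summed to 237 CPM ± 45.8 (SD, n = 10) in knockout islets against 250 CPM ± 34.8 (SD, n = 8) in WT islets.

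The early and recycling endosome class held 35.7% ± 3.22 (SD, n = 10) of the Rab CPM in knockout islets against 37.4% ± 1.89 (SD, n = 8) in WT islets, the largest share of the 6 classes. Rab14 (chr2:35180205-35201120), which acts between the trans-Golgi and endosomes, made up 33.6% of the class and 12.7% of all Rab CPM. Rab11b (chr17:33742484-33760486), of the recycling endosome, ran from 6.66 through 7.21 to 7.46 in the knockout and from 6.96 through 7.19 to 7.502 in WT. Rab5c (chr11:100715003-100738215), of the early endosome, ran from 5.72 through 6.58 to 7.14 in the knockout and from 6.22 through 6.79 to 7.18 in WT. Both overlapped between the groups, with KO 2 lowest. The other 10 members had medians of 6.47 for Rab22a, 5.84 for Rab11a, 5.66 for Rab4b, 5.64 for Rab25, 4.87 for Rab21, 4.30 for Rab4a, 3.95 for Rab35, 3.38 for Rab5b, 1.69 for Rab31 and 1.29 for Rab20. The class summed to 837 CPM ± 140 (SD, n = 10) in knockout islets against 932 CPM ± 73.9 (SD, n = 8) in WT islets.

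At late endosomes, lysosomes and autophagosomes, 3 members were abundant and 3 were not. Rab7 (chr6:87999106-88045270), which drives the fusion of late endosomes and autophagosomes with lysosomes, ran from 6.86 through 7.41 to 7.90 in the knockout and from 7.14 through 7.33 to 7.79 in WT. Rab24 (chr13:55319223-55321980), which acts in autophagy, ran from 6.58 through 6.93 to 7.34 and from 6.93 through 7.10 to 7.27. Rab12 (chr17:66494512-66519750), which acts in the delivery of receptors to lysosomes, ran from 6.40 through 6.92 to 7.52 and from 6.77 through 7.05 to 7.55. All 3 overlapped between the groups. Rab9, of the route from late endosomes to the trans-Golgi, had a median of 3.24, Rab7b 2.63 and Rab9b 1.82. The class summed to 449 CPM ± 27.0 (SD, n = 10) in knockout islets against 455 CPM ± 44.8 (SD, n = 8) in WT islets. The remaining members summed to 48.7 CPM ± 9.83 (SD, n = 10) and 54.3 CPM ± 9.74 (SD, n = 8). They were led by Rab40c, which forms part of a ubiquitin ligase, at a median of 4.74, with Rab23, known from ciliary signalling, at 3.83, Rab28, of photoreceptor cilia, at 3.23 and Rab40b at 1.80.

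KO 2 was the lowest library for the sums of the ER and Golgi, surface, early and late endosome classes. Without KO 2, KO 3 and WT 7 the early and recycling endosome sum was 871 CPM ± 75.3 (SD, n = 8) in knockout islets against 920.2 CPM ± 70.7 (SD, n = 7) in WT islets, or 36.5% ± 1.23 (SD, n = 8) against 37.0% ± 1.68 (SD, n = 7) of the Rab CPM, and the class kept the largest share. The ER and Golgi sums were then 564 CPM ± 58.4 (SD, n = 8) against 554 CPM ± 44.4 (SD, n = 7), the knockout mean now being the higher. The surface sums were 231 CPM ± 43.0 (SD, n = 8) against 254 CPM ± 11.6 (SD, n = 7), and the granule sums 219 CPM ± 25.6 (SD, n = 8) against 243 CPM ± 29.6 (SD, n = 7). Late endosome and lysosome sums were 449.7 CPM ± 22.2 (SD, n = 8) against 455 CPM ± 48.4 (SD, n = 7). These sums without the 3 libraries were added after the data had been seen, and none of the differences in sums was tested.

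For most closely related Rab genes, one partner of the pair exceeded the other in every library, in both groups. Ratios were taken within a library as differences of the log2 values, whose shared floor understates the ratio where a partner has few reads, as Rab31, Rab3c and Rab40b have. Rab2a exceeded Rab2b by a mean log2 ratio of 2.99 ± 0.73 (SD, n = 10) in knockout islets against 3.01 ± 0.57 (SD, n = 8) in WT islets. Rab11b exceeded Rab11a by 1.28 ± 0.23 (SD, n = 10) and 1.22 ± 0.43 (SD, n = 8), and Rab6a exceeded Rab6b by 1.93 ± 0.43 (SD, n = 10) and 1.83 ± 0.58 (SD, n = 8). Rab8a over Rab8b, Rab10 over Rab13, Rab22a over Rab31, Rab40c over Rab40b, Rab5c over Rab5b, and Rab3d over both Rab3b and Rab3c also held in 18 of 18 libraries. Rab4b exceeded Rab4a in all libraries but 1. Rab9 exceeded Rab9b in 17 of 18 and Rab1a exceeded Rab1b in 15 of 18. The pair whose ratio differed most between the groups was Rab5c over Rab5b, at 3.07 ± 0.63 (SD, n = 10) in knockout islets against 3.88 ± 0.93 (SD, n = 8) in WT islets, a difference of -0.81 that was noticed from the values and not tested. In WT the ratio ran from 2.99 to 6.02, and the highest was WT 5, where Rab5b had 6 reads. The sources used here do not give how reads shared by paralogs were counted.

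Knockout and WT islets gave no Rab transcript that passed the test. In limma, with Benjamini-Hochberg adjustment over all genes, 0 of 44 members had an adjusted p under 0.05, where 0% of the 10509 genes did. At an unadjusted p under 0.05 the members were Rab19 and Rab5b with higher values in the knockout, against 3.18% of all genes, and Rab14 and Rab25 with lower values, against 2.22%. These 4 are 9.09% of the members, beside 5.4% of genes in either direction. Limma voom on the recovered reads also called 0, with Rab14, Rab19 and Rab5b as the 3 members below 0.05 before adjustment (6.82%, beside 5.20% of all genes). An exact rank-sum test called 0 with 2 such members, Rab14 and Rab19 (4.55%, beside 5.09%). Without KO 2, KO 3 and WT 7 limma called 0, with 3 such members, Rab19, Rab3c and Rab5b (6.82%, beside 6.28%). Rab3c, at 0 reads in WT 7, had a log2 fold change of -0.43 (SE 0.43) over all 18 libraries. The 95% interval lay within a 2-fold change for 37 of the 44 members, beside 77.1% of all genes.

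More fold changes lay below 0 than above, by small amounts and partly through 1 library. Of the 44 members 33 (75.0%) had a knockout minus WT log2 fold change below 0, beside 50.4% of all genes, and the median was -0.09 beside -0.00255 for all genes. Without KO 2 there were 28 below 0 (63.6%, beside 49.5% of all genes), at a median of -0.06. Without KO 2, KO 3 and WT 7 there were 25 (56.8%, beside 50.2% of all genes), at a median of -0.04. Class medians were -0.04 at the ER and Golgi, -0.18 for the surface, -0.12 for granules, -0.14 for early and recycling endosomes, 0.01 for late endosomes and lysosomes and -0.30 for the remaining 4. Without KO 2, KO 3 and WT 7 the medians were -0.01 at the ER and Golgi, -0.15 for the surface, -0.14 for granules, 0.0067 for early and recycling endosomes, 0.06 for late endosomes and lysosomes and -0.17 for the remaining 4. Without KO 2 alone the ER and Golgi median was 0.01 and that of early and recycling endosomes -0.05. With the run of animal numbers as a term over 12 libraries 31 members were below 0 (70.5%, beside 51.8% of all genes), at a median of -0.09. In that fit the granule median was -0.38, that of late endosomes and lysosomes -0.01 and that of the remaining 4 -0.02. The directions of the ER and Golgi, early endosome and late endosome medians therefore depended on the libraries used. These counts and medians describe the list and carry no test. The marker score of stromal cells (mean log2 of 10 of 12 listed fibroblast and pericyte genes, none at 0 reads in any library) was 3.27 ± 0.45 (SD, n = 10; 2.36 to 3.73) in knockout islets against 2.91 ± 0.33 (SD, n = 8; 2.36 to 3.37) in WT. The myeloid score (12 of 16 genes, with Adgre1 at 0 reads in 7 libraries) was 3.27 ± 0.75 (SD, n = 10; 2.30 to 4.66) and 3.301 ± 0.50 (SD, n = 8; 2.53 to 3.85). Other measures that differed in mean between the groups were the adipocyte score (4 of 7 genes, none at 0 reads), at 4.22 ± 0.54 (SD, n = 10; 3.63 to 5.27) against 3.68 ± 0.34 (SD, n = 8; 3.20 to 4.09), and the alpha-cell score (8 of 9 genes, with Irx1 at 0 reads in 2 libraries), at 5.41 ± 0.53 (SD, n = 10; 4.71 to 6.22) against 5.83 ± 0.37 (SD, n = 8; 5.21 to 6.41). Ins2 took 44.6% ± 5.56 (SD, n = 10) of reads against 38.7% ± 3.78 (SD, n = 8). The part of these 3 measures in the Rab fold changes was not tested. With the stromal and myeloid scores as covariates 26 of 44 members were below 0, beside 48.2% of all genes, at a median of -0.04. With the acinar score as covariate 33 (75.0%) were below 0, beside 50.5% of all genes, at a median of -0.09.

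**Figure D2:**
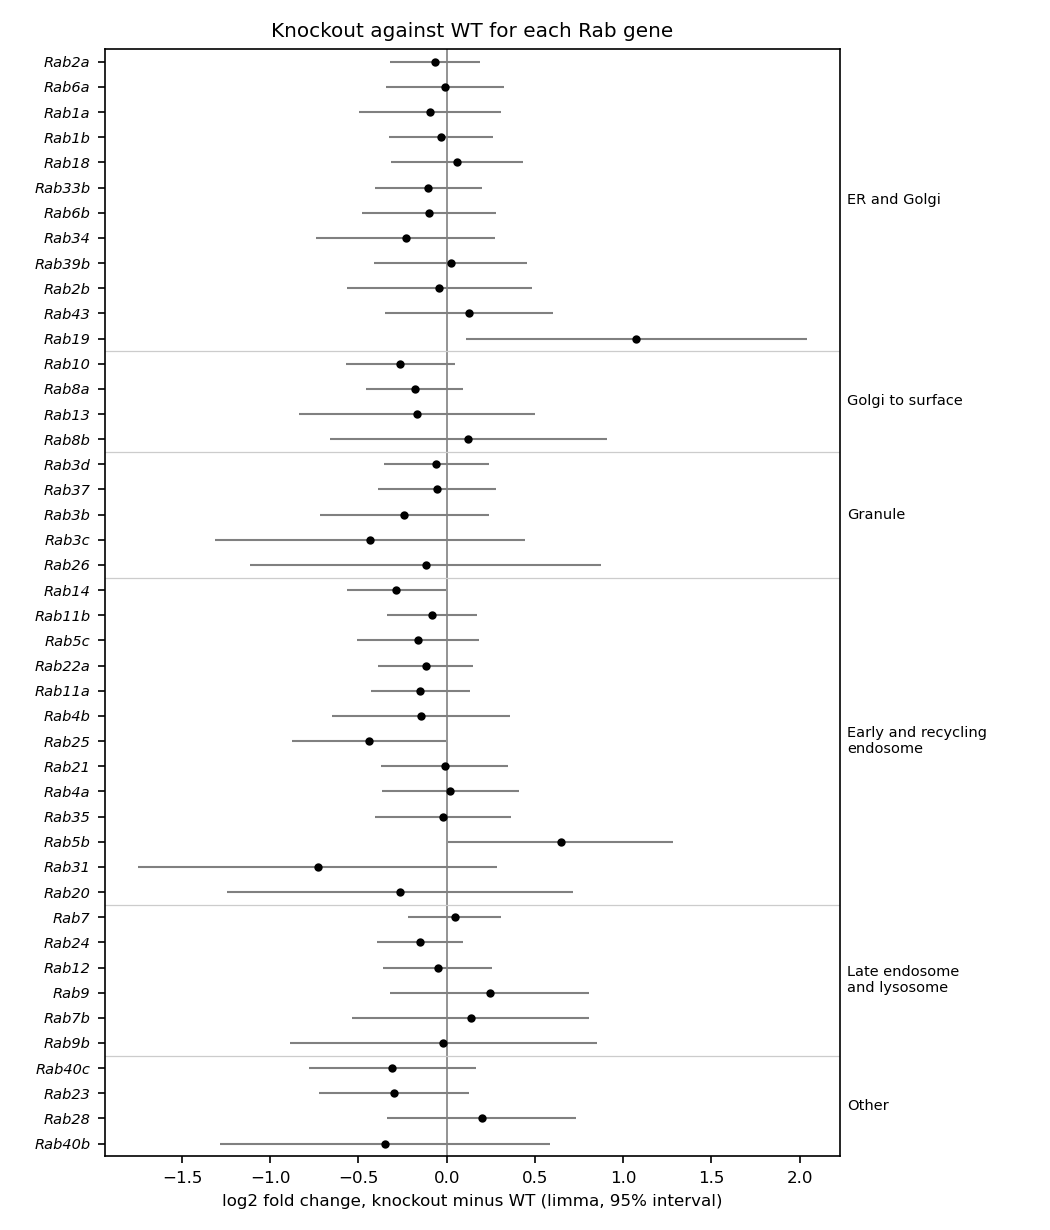
Knockout minus WT log2 fold change of each Rab gene with its limma 95% interval on the horizontal axis, grouped by compartment, with a line at 0. The median of the 44 is -0.09, and the widest intervals belong to genes of few reads such as Rab19 and Rab31.

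Rab14 was the abundant member with the smallest p. Its knockout levels were 7.11 at lowest, 8.17 at the median and 8.41 at highest, and its WT levels 8.17, 8.36 and 8.44. Of 10 knockout libraries 9 lay below the WT mean, and KO 2 stood apart at the low end. The log2 fold change was -0.29 (SE 0.14, 95% interval -0.57 to -0.00416, limma unadjusted p = 0.0469, adjusted p = 0.925). Without KO 2 it was -0.18 (SE 0.10) and with the stromal and myeloid scores as covariates -0.14 (SE 0.13). The titles number the animals, and 3 runs of adjacent numbers include mice of each genotype, whose differences were -0.56, -0.23 and -0.36, the last with 1 WT library. The only knockout libraries of the first run are KO 2 and KO 3, here and for the genes below.

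Rab25, an epithelial relative of Rab11 that acts in recycling, and Rab10 had the next smallest p in that direction. Rab25 (chr3:88542029-88548279) ran from 4.003 through 5.54 to 6.07 in the knockout and from 5.02 through 5.90 to 6.06 in WT. The low end of its knockout values was KO 2 and that of WT was WT 1, and the ranges overlapped. Its fold change was -0.44 (SE 0.21, 95% interval -0.88 to -0.00337, limma unadjusted p = 0.0484, adjusted p = 0.925). It was -0.29 without KO 2, -0.13 with the stromal and myeloid covariates, and -0.72, -0.44 and -0.44 within the 3 runs. Rab10 had a fold change of -0.26 (SE 0.15, limma adjusted p = 0.945), which was -0.17 without KO 2, -0.09 with the same covariates, and -0.68, -0.25 and -0.37 within the runs. Rab31, a Rab5-like endosomal member with 0 to 35 reads, was at -0.73 (SE 0.50, limma adjusted p = 0.945). It was -0.37 without KO 2, KO 3 and WT 7, -0.21 with the covariates, and -3.24, 0.19 and -0.14 within the runs, the first of which holds KO 2 and KO 3, both at 0 reads. Rab23 was at -0.30 (SE 0.21, limma adjusted p = 0.945), and over the 12 libraries of the runs it turned to 0.039, or 0.0023 with the run as a term.

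In the higher direction the members with the smallest p had few reads. Rab5b (chr10:128677170-128696284), of the early endosome, ran from 2.45 through 3.55 to 4.51 in the knockout and from 0.99 through 3.14 to 3.57 in WT, on 6 to 87 reads. Of 10 knockout libraries 9 exceeded the mean of WT, and WT 5 stood apart at the low end. The fold change was 0.65 (SE 0.31, limma unadjusted p = 0.0468, adjusted p = 0.925). Without WT 5 it was 0.37 (SE 0.26), and within the 3 runs 0.20, 0.17 and 2.51, the last against WT 5 alone. Rab19 (chr6:39380709-39390666), a Golgi member, had 0 to 16 reads and levels of -0.83, 1.73 and 2.22 in the knockout and -0.83, 0.31 and 1.39 in WT. Its fold change was 1.08 (SE 0.47, limma unadjusted p = 0.0302, adjusted p = 0.925), and within the 3 runs the differences were -0.58, 2.28 and 1.85. The first run, which holds KO 2 and KO 3, went the other way, and without KO 2, KO 3 and WT 7 the fold change was 1.54 (SE 0.44, limma adjusted p = 0.395). Rab9 at 0.24 (SE 0.27), Rab28 at 0.20 (SE 0.26) and Rab43 at 0.13 (SE 0.23) completed the 5, with limma adjusted p of 0.972, 0.973 and 0.975. These values moved with the libraries used. Rab9 was 0.86, 0.43 and -0.46 within the runs and 0.07 with the covariates, Rab28 was -0.012 over the 12 libraries of the runs, and Rab43 was -0.031 without KO 2, KO 3 and WT 7.

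**Figure D3:**
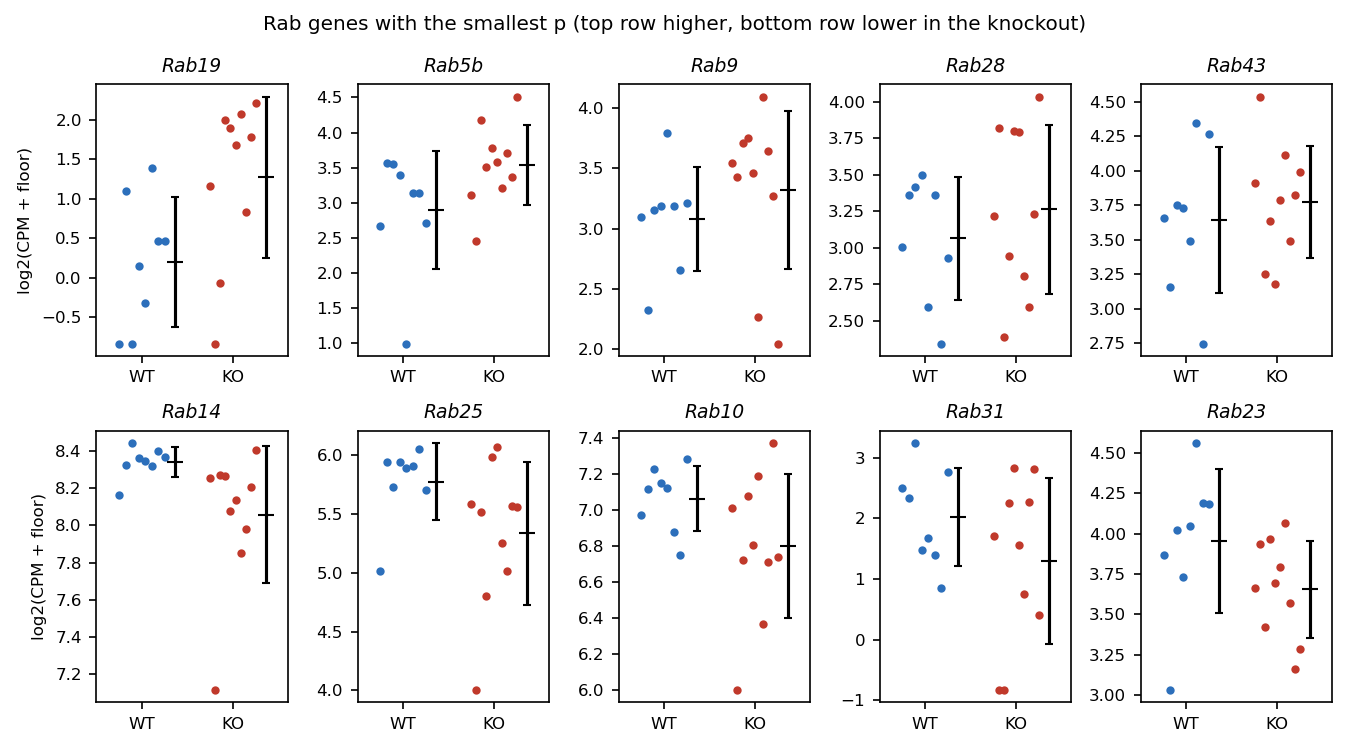
Deposited log2(CPM + floor) on the vertical axis of the 10 Rab genes with the smallest p between groups, 5 higher (top row) and 5 lower (bottom row) in the knockout, with a point per library for the 10 knockout and 8 WT mice and the group mean ± SD. The groups overlap in each panel, KO 2 lies lowest for Rab14 at 7.11 and WT 5 lies lowest for Rab5b at 0.99.

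The genes that load, switch and read Rab proteins gave 0 calls as well. Of 134 listed regulators and effectors 114 were measured, and limma gave 0 an adjusted p under 0.05 and 2 an unadjusted p under 0.05, both lower, where 2.22% of all genes were lower at that threshold. Voom and the exact rank-sum test each called 0, with 3 below 0.05 before adjustment (2.63% of the regulators, beside 5.20% and 5.09% of all genes). In limma without KO 2, KO 3 and WT 7, 0 were called and 11 were below 0.05 before adjustment (9.65%, beside 6.28% of all genes). With the stromal and myeloid scores as covariates 0 were called and 10 were below it (8.77%, beside 7.32%). The smallest p belonged to Golga2 (GM130), the cis-Golgi tether that binds Rab1. Its levels were 6.97, 7.24 and 7.60 in the knockout and 7.42, 7.64 and 7.87 in WT, the upper part of the knockout range overlapping the lower part of the WT range. The log2 fold change was -0.36 (SE 0.11, limma unadjusted p = 0.00341, adjusted p = 0.797). It was -0.37 without KO 2, -0.35 with the stromal and myeloid covariates, and -0.26, -0.52 and -0.34 within the 3 runs, so it was as large without the library that stood apart. Trappc2l, a subunit of the TRAPP activator complex, was at -0.30 (SE 0.15, limma unadjusted p = 0.0457, adjusted p = 0.925).

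The other regulators named here did not reach an unadjusted p of 0.05. The TBC-domain protein Tbc1d30 was at -0.54 (SE 0.27) and Ccz1, of the Rab7 activator, at -0.30 (SE 0.17). In the higher direction were the TRAPP subunit Trappc2 at 0.70 (SE 0.36, 1 to 19 reads) and the DENN-domain activators Dennd6b at 0.40 (SE 0.22) and Dennd3 at 0.70 (SE 0.40, 0 to 37 reads). Of the 34 measured GAPs 10 had a fold change above 0 and 24 below, with a median of -0.05. The 40 GEFs were split 20 and 20 with a median of -0.00115. Of all 114 regulators 63 (55.3%) lay below 0, beside 50.4% of all genes. With the run as a term it was 50.0%, beside 51.8%, and without KO 2, KO 3 and WT 7 it was 61.4%, beside 50.2%. These splits carry no test. The 33 effectors were split 17 above and 16 below, and the 7 genes of the membrane cycle 4 and 3.

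Differences between mice in other cell types were then set against the Rab levels. Each gene was fitted on a marker score with genotype as a term, over all genes. No member passed for any of the 6 scores, while 0.343% of genes passed for the acinar score, 0.19% for alpha cells, 0.133% for myeloid cells, 0.00952% for endothelial cells, 0.019% for stromal cells and 0% for the ductal score. At an unadjusted p under 0.05 there were 7 members for the acinar score (14.5% of genes), 2 for alpha (6.95%), 4 for myeloid (12.6%), 7 for endothelial (11.5%), 7 for stromal (10.3%) and 6 for ductal (13.4%), out of 44. For the 6 members on the ductal score the slope was above 0 in each, as for 7.97% of genes. That score averages ductal and epithelial markers of unlike level. Krt7 and Krt18 had median log2 levels of 8.84 and 7.81, and Sox9, Krt19 and Muc1 of 1.62, 1.61 and 1.63, with Spp1 and Krt8 between. Whether the score follows duct cells was not tested. The smallest p was that of Rab25 on the ductal score, with a slope of 1.009 log2 units per unit of score (SE 0.26, limma adjusted p = 0.221). Without KO 2 and KO 4, the libraries farthest from the median score, that slope was 0.51 (limma unadjusted p = 0.133), and without KO 2, KO 3 and WT 7 it was 0.79.

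Rab1a had a slope of 0.16 on the acinar score (SE 0.06), which did not pass in limma over 18 libraries (adjusted p = 0.194) and did without KO 2 (slope 0.16, SE 0.04, adjusted p = 0.0476). The acinar score ran from 1.66 to 7.08 in the knockout and from 2.004 to 6.87 in WT, on 13 of 18 listed enzyme genes. Rab12 had a slope of -0.34 (SE 0.11) on the myeloid score, with a limma adjusted p of 0.180, and it passed without KO 2, KO 3 and WT 7 (slope -0.37, SE 0.09, adjusted p = 0.0415).

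From mouse to mouse, 5 pairs of Rab transcripts passed a test of co-variation over all 18 libraries, none of them by Spearman's rho, without KO 2 or without some other single libraries. Pearson's r was computed over 18 libraries after the mean of each group had been subtracted, for the 561 pairs of 34 members with a median of at least 30 reads. The median r was 0.0568, beside -0.000215 over all pairs of the 7243 genes with as many reads. An r above 0.5 was found for 14.8% of Rab pairs and 6.91% of all pairs, and an r below -0.5 for 4.99% and 6.51%. Without KO 2 the share of Rab pairs above 0.5 was 7.66%, with no share of all pairs available beside it. Without KO 2, KO 3 and WT 7 it was 8.91% beside 6.17% of all pairs. Libraries share their depth and scaling, so these values describe the list. Within-group spread was lower for these members than for genes with as many reads, with a median SD of 0.36 log2 units against 0.41. The sets were not matched for level beyond that minimum of reads.

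**Figure D4:**
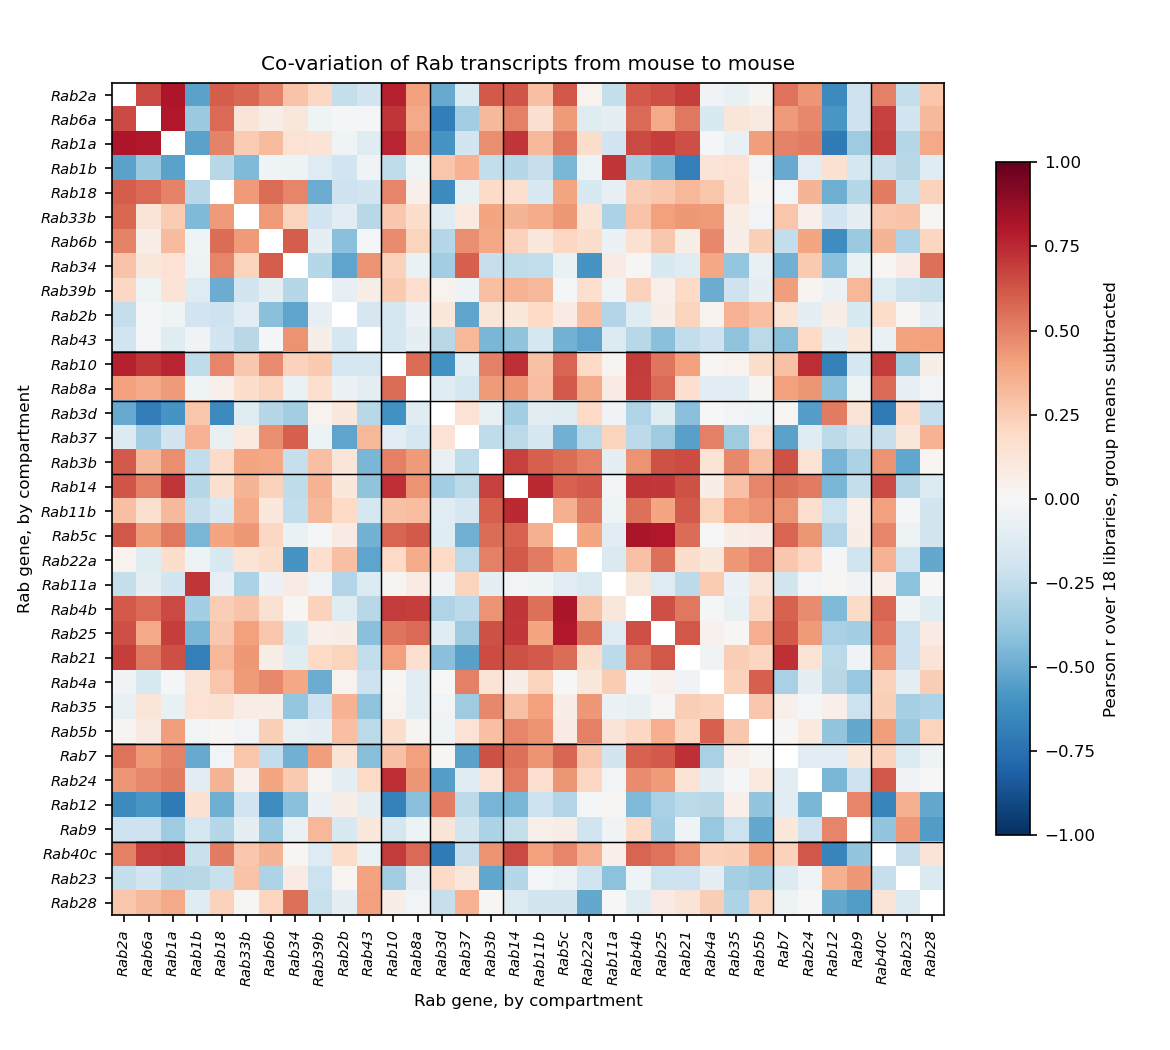
Pearson's r of each pair of 34 Rab genes over 18 libraries, with group means subtracted, as a heat map ordered by compartment on both axes. Positive values gather among the early and recycling endosome genes, whose median r was 0.29 with all libraries and 0.13 without KO 2, KO 3 and WT 7.

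Of the 561 pairs 5 had a permutation p under 0.05 after adjustment over all of them, and all 5 were positive. No share of all gene pairs under the same test is available beside this number. Whether it is particular to Rab genes was therefore not tested. Rab5c and Rab4b, both of the early endosome, had r = 0.82 (permutation p = 0.00021, adjusted p = 0.0467) and Spearman's rho = 0.80 (permutation p = 0.00023, adjusted p = 0.110). Rab4b ran from 3.82 through 5.65 to 6.46 in the knockout and from 5.46 through 5.75 to 6.28 in WT, and both genes were lowest in KO 2. Without KO 2 and WT 1, the 2 libraries farthest from the median, r was 0.71. Rab2a and Rab1a, of ER-to-Golgi transport, had r = 0.81 (permutation p = 8e-05, adjusted p = 0.0449) and rho = 0.71 (permutation p = 0.00237, adjusted p = 0.111), with r = 0.75 without KO 2 and KO 8.

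Rab6a and Rab1a had r = 0.80 (permutation p = 0.00043, adjusted p = 0.0482) and rho = 0.74 (permutation p = 0.00101, adjusted p = 0.110), with r = 0.58 without KO 2 and KO 3. Rab5c and Rab25 had r = 0.80 (permutation p = 0.00043, adjusted p = 0.0482) and rho = 0.70 (permutation p = 0.00196, adjusted p = 0.110), with r = 0.53 without KO 2 and WT 1. Rab2a and Rab10 had r = 0.78 (permutation p = 0.00025, adjusted p = 0.0467) and rho = 0.75 (permutation p = 0.00125, adjusted p = 0.110), with r = 0.69 without KO 2 and KO 8. Within the 12 libraries of the 3 animal-number runs, with the run as a term, the 5 values of r were 0.74, 0.59, 0.56, 0.94 and 0.63 in the order given. By Spearman's rho 0 pairs passed. Without KO 2, KO 3 and WT 7 0 passed, and the 5 values of r were 0.78, 0.72, 0.47, 0.64 and 0.69 in the same order. Leaving out 1 library at a time gave 0 to 8 pairs. The number was 0 on removing KO 1, KO 3, KO 7, KO 8, KO 9, WT 3, WT 4 or WT 6. It was 1 on removing KO 2 (Rab1a with Rab28, not among the 5) and 2 on removing KO 4, KO 10, WT 1 or WT 7. It was 4 on removing KO 6, 5 on removing WT 2, 6 on removing KO 5 or WT 5, and 8 on removing WT 8. All 5 pairs passed on removing WT 2, WT 5 or WT 8, 4 of them on removing KO 5 and 2 on removing KO 6. Some members of these pairs also had slopes on scores of other cell types, at unadjusted p under 0.05 and with none passing in limma. On the endothelial score (11 of 11 genes, with Tek at 0 reads in 4 libraries; 4.49 to 5.18 in the knockout, 4.29 to 4.93 in WT) they were -1.28 for Rab5c, -1.77 for Rab4b, -1.31 for Rab25 and -1.03 for Rab10, which became -0.9995, -0.71, -0.52 and -0.73 without KO 2, KO 3 and WT 7. On the ductal score (7 of 11 genes, with Sox9, Krt19 and Muc1 each at 0 reads in 1 library; 4.01 to 5.19 in the knockout, 4.20 to 5.06 in WT) they were 0.54 for Rab5c, 0.83 for Rab4b, 1.009 for Rab25 and 0.83 for Rab1a, which became 0.34, 0.14, 0.79 and 0.30. On the stromal score the slopes were -0.68 for Rab1a, -0.44 for Rab6a and -0.55 for Rab25, and -0.36, -0.17 and -0.48 without these 3 libraries. On the acinar score they were 0.16 for Rab1a and 0.08 for Rab2a, and 0.14 and 0.08 without the 3. On the myeloid score they were 0.46 for Rab4b and 0.26 for Rab10, and 0.34 and 0.24 without the 3. The part of these scores in the correlations was not tested.

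The sixth pair by r was Rab1a and Rab10 at 0.76 (permutation adjusted p = 0.0824; 0.56 without KO 2 and KO 3). The lowest values were -0.71 for Rab3d and Rab40c, -0.70 for Rab1a and Rab12 and -0.69 for Rab6a and Rab3d, with permutation adjusted p of 0.0824, 0.0824 and 0.0942. The first 2 of these kept values of -0.67 and -0.69 without KO 2, KO 3 and WT 7, while Rab6a and Rab3d went to -0.18.

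**Figure D5:**
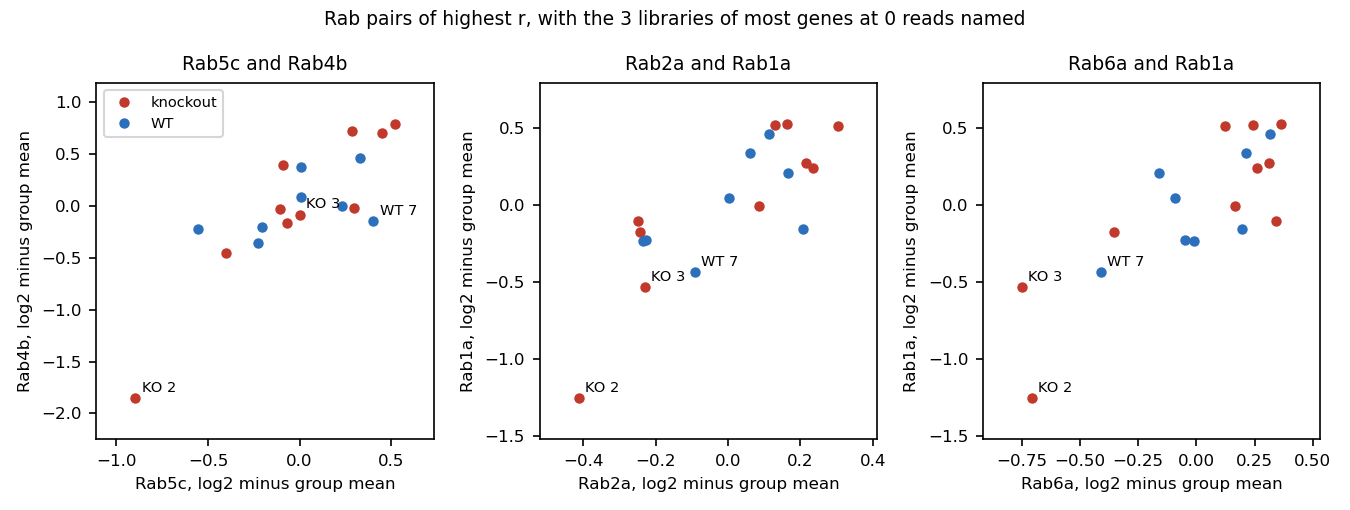
The 3 Rab pairs of highest r, each point 1 of 18 libraries, with the log2 level minus its group mean of one gene on each axis and the libraries KO 2, KO 3 and WT 7 named. KO 2 lies at the low end of both axes for Rab5c and Rab4b, where r is 0.82 with all libraries and 0.69 without KO 2.

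The median r is given by compartment as a description, with no test of the differences. Among the 11 early and recycling endosome members the median r of 55 pairs was 0.29, and 0.13 without KO 2, KO 3 and WT 7. Among the 11 ER and Golgi members the median of 55 pairs was -0.02, among the 3 granule members -0.08, and among the 4 late endosome and lysosome members -0.11. Pairs within a compartment had a median of 0.13 and pairs between compartments 0.04. Of the 44 members 17 have an exon that overlaps another annotated gene, and for 6 that gene codes for a protein: Traf7 for Rab26, Prelid1 for Rab24, Tox4 for Rab2b, Mrpl48 for Rab6a, Gm21983 for Rab4b and Gm45140 for Rab43. The sources used here do not give whether counting used strand, so reads of these genes and their neighbours may not be separable.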

How the data were processed

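Log2 values of 10509 genes were deposited for 18 islet libraries, 1 per mouse as the labels number the animals. Total RNA was made into 3′ end libraries with the QuantSeq FWD kit, per the labels' protocols. The tools listed in the submitters' processing notes are HTSeq 0.6.1, STAR 2.5.2 and edgeR, and the build is GRCm38. The sources used here do not give the annotation, strand setting, filter or prior count. The deposited log2 values of each library, less a shared floor of 0.562 CPM, were whole multiples of 0.238 to 0.411 CPM within 0.05 reads for 100% of values, so whole reads were recovered. On this scale the fold changes of genes with few reads are understated. Reads copied by PCR are not separate molecules, so precision from read numbers covers counting error only.

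Groups came from the genotype label. The 73 pairs of libraries within groups differed beyond sampling noise (chi-square per degree of freedom 6.01 to 41.3), so each was counted. Labels do not say that mice came from separate litters, and p-values measure the spread between these samples. The test was limma 3.58.1 in R 4.3.3 (empirical Bayes with trend, no covariate, two-sided) on genes with log2 above 0 in at least 8 samples, which removed 0 genes. P-values were adjusted by Benjamini-Hochberg over all genes. Correlations used 100000 permutations within groups, with adjustment over the 561 pairs. The limma and correlation steps were tested on simulated data.

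Members, compartments, the 134 regulators and the marker lists were chosen with earlier results of these data known. Named were the 3 highest members of each compartment, the 5 members of smallest p in each direction, paralog pairs, the 6 pairs of highest and 3 of lowest r, the 4 regulators of smallest p in each direction and members of smallest p on a score, except 1 regulator that is not reported here. Marker scores are mean log2 values of a list. The score was not fitted for beta, delta and adipocyte lists, and 0 of the lymphocyte markers were listed. Alternatives covered filters, the added constant, scaling, variance models, weights, voom, a rank-sum test over 43758 regroupings, marker covariates and left-out libraries. The fit over 15 libraries in runs of animal numbers, the r of pairs without KO 2 alone and the within-run values were chosen after seeing the data.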

Additional observations from a re-analysis of the deposited data

Results flagged for a closer look

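Single libraries stood apart from the rest of their group for 4 of the Rab genes with values by library above. In 52 groups of values checked by Dixon's test at the 95% level, 5 had such a library, where chance gives about 1 in 20. Rab14 was at 7.11 in KO 2, with the nearest knockout library at 7.85, and at 8.17 in WT 1, with the nearest WT library at 8.32. Rab7 was at 7.79 in WT 5, with the next at 7.43. Rab5b was at 0.99 in WT 5, on 6 reads, with the next at 2.67. Rab25 was at 5.02 in WT 1, with the next at 5.70. Without WT 1 the fold change of Rab25 was -0.55 (SE 0.21) and that of Rab14 -0.31 (SE 0.14), and without WT 5 that of Rab5b was 0.37 (SE 0.26).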

How the results depend on the processing

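Over 35 alternatives limma, voom or the rank-sum test called 0 of all genes, 0 Rab members and 0 regulators. The median fold change of the members stayed below 0 in 33 alternatives, from -0.15 to -0.04. Rab43 turned to -0.013 with array weights, -0.031 without KO 2, KO 3 and WT 7 and -0.00048 without WT 7, Rab28 to -0.012 over the 12 libraries of the 3 runs with both groups, and Rab23 to 0.039 over these 12 and 0.0023 with the run as a term. The cause was not tested. Leaving out 1 library at a time, Rab23 ranged from -0.43 to -0.21 and Rab43 from -0.00048 to 0.23. Members called on the acinar score numbered 0 to 1 when 1 library was left out, and 1 was called on the myeloid score without KO 2, KO 3 and WT 7. The median r was 0.202 among members with a median of at least 100 reads, and 0.0484 to 0.0752 in the other 23 alternatives. Pairs that passed numbered 0 by Spearman's rho, 0 without KO 2, KO 3 and WT 7, and 0 to 8 with 1 library left out. Leaving the filter out gave the same genes as the filter used, which removed 0 genes. The labels give no replicate numbers shared between groups, so no fit with a replicate block was made; runs of animal numbers were the only grouping fitted as a term. Over all alternatives the class medians ranged from -0.09 to 0.07 at the ER and Golgi, -0.25 to -0.09 for the surface, -0.49 to -0.02 for granules, -0.18 to 0.0067 for early and recycling endosomes, -0.08 to 0.12 for late endosomes and lysosomes and -0.34 to -0.018 for the remaining 4.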
